A study of Mus musculus with 2 samples.

Results

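The centrosomal microcephaly genes are 10 genes whose loss causes primary microcephaly, a small but largely normally patterned brain. Most of their proteins, though not that of Mcph1, build the centriole, the pericentriolar material, the spindle pole or the midbody. The genes are Aspm, Wdr62, Cdk5rap2, Cep152, Stil, Sass6, Cenpj, Cep135, Cit and Mcph1. Their rows were taken by gene identifier through mouse GENCODE names, and all 10 were found among the 21460 nuclear genes annotated as protein-coding. They were read in total RNA sequencing of mouse forebrain at embryonic day 13.5 (E13.5), which holds 2 libraries in 1 group. The embryos were of the B6NCrl strain, male and female embryos were pooled, and no allele, treatment or control group is labelled. The labelled RNA input was 10 ng for each library, and the libraries are labelled as biological replicates, from tissue samples that are separate but share a donor code. With 1 group there is no contrast between conditions, so levels are given with the standard deviation (SD) over 2 libraries and no test was run.

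In the embryonic forebrain, radial glia divide at the ventricular surface, where the centrosomes organise the mitotic spindle and also anchor the primary cilium. Each centrosome holds a pair of centrioles, and a new centriole forms beside each old one in every cell cycle. Loss of the proteins that build centrioles or focus spindle poles slows mitosis or changes how daughter cells divide, and the pool of progenitors shrinks.

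Levels are in TPM, the abundance of a gene's transcripts relative to all transcripts of a library, corrected for length. Depth was 35378462 estimated counts in replicate 1 and 36793284 in replicate 2. Markers of apical progenitors had a median level of 69.3 TPM and markers of postmitotic neurons 225 TPM. All 6 mid- and hindbrain markers were under 1 TPM in both libraries. The neurogenic markers of progenitors committed to becoming neurons were at a median of 65.8 TPM, and 3 of the 6, Neurog2, Eomes and Insm1, were at least 1.2-fold higher in replicate 2, with log2 ratios of replicate 2 over replicate 1 of 0.29, 0.30 and 0.33. Erythroid markers had a median of 1628 TPM, endothelial and mural markers 9.68 TPM and microglial markers 5.14 TPM. The summed level of 6 choroid plexus markers was 459 TPM in replicate 1 and 237 TPM in replicate 2, and 5 of the 5 with enough counts were at least 1.2-fold higher in replicate 1. The summed level of 8 apical progenitor markers was 2442 and 2471 TPM. In bulk tissue, fewer cells of a type and less RNA per cell cannot be told apart.

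All 10 microcephaly genes were measured well above 0, between 5.20 and 22.4 TPM. Cit was the highest and Cep152 the lowest, a 4.31-fold range. The median over the 10 genes was 11.4 ± 0.693 TPM (SD of the medians of each library, n = 2), with 11.9 TPM in replicate 1 and 10.9 in replicate 2. Over all 21460 protein-coding genes the median was 3.91 TPM, and over the 11953 that averaged 100 or more expected counts it was 22.4 TPM. At least 10 TPM in both libraries was reached by 7 of the 10 genes, all but Wdr62, Cep135 and Cep152. It was reached by 8343 of all 21460 protein-coding genes (38.9%), while 12651 were at 1 TPM or more in both libraries. All 10 genes have long messages: their median effective length was 5171 bases, against 2534 bases for the genes with enough counts, and each of the 10 was above that value. Among 4067 protein-coding genes of at least 1 TPM in both libraries and with an effective length within the range of the 10 genes, the median level was 12.9 TPM, against 20.1 TPM for all 12651 genes at that level.

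**Figure D1:**
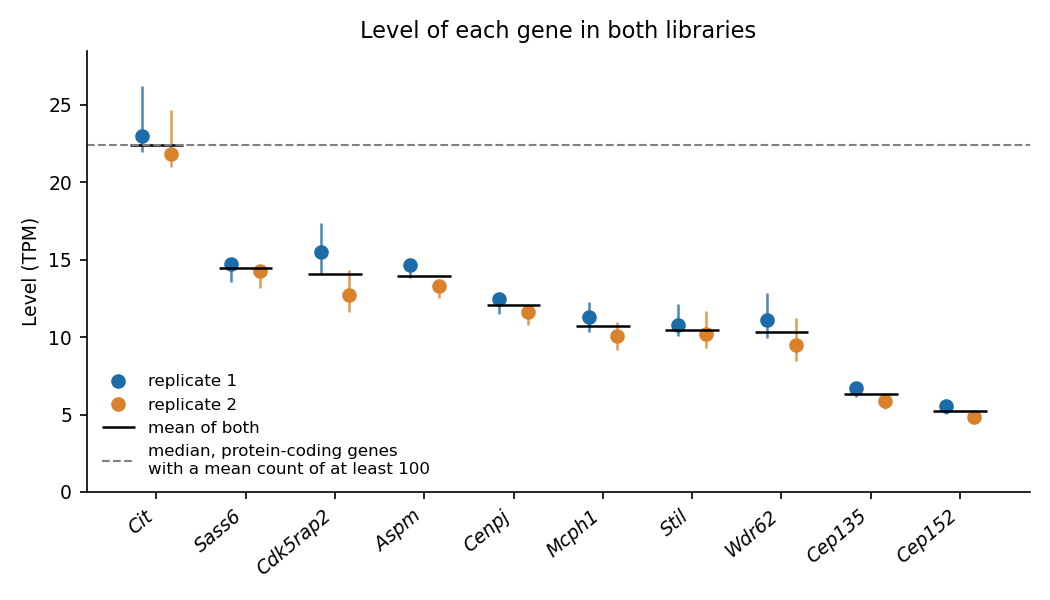
Level in TPM (vertical axis) of the 10 genes in replicate 1 and replicate 2. Lines through the points are the deposited lower and upper bounds of TPM, whose level is not stated. The dashed line is the median of the protein-coding genes with enough counts, 22.4 TPM. Cit lies between 21.8 and 23.0 TPM above all others, and Cep135 and Cep152 lie below 7 TPM in both libraries.

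Among the spindle pole and pericentriolar genes, Aspm (chr1:139454772-139494091, plus strand, mm10) encodes a protein that binds the minus ends of spindle microtubules and is the gene most often mutated in human primary microcephaly. Its level was 14.7 TPM in replicate 1 and 13.3 TPM in replicate 2, from 3185 and 3143 expected counts. It was 14.0 ± 0.983 TPM (SD, n = 2), at percentile 64.9 of the protein-coding genes. Wdr62 (chr7:30240138-30280419, minus strand) encodes a spindle pole scaffold that also binds kinases of the JNK pathway. It was at 11.1 and 9.52 TPM in replicates 1 and 2, from 780 and 732 counts, or 10.3 ± 1.12 TPM. The Cdk5rap2 gene (chr4:70216856-70410443, minus strand) makes a pericentriolar protein that binds and activates the gamma-tubulin ring complex, from which microtubules grow. It was at 15.5 TPM in replicate 1 and 12.7 TPM in replicate 2, from nearly equal counts of 2140 and 2125, and its mean was 14.1 ± 1.99 TPM. This was the largest SD of the 10 genes. Aspm and Cdk5rap2 did not differ beyond their spread, since the lower library of Cdk5rap2 lay under both libraries of Aspm and the higher one above them.

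Of the genes that build the centriole, Cep152 (chr2:125563088-125625113, minus strand) encodes a scaffold that brings the kinase Plk4 to the old centriole. It was at 5.57 and 4.83 TPM in replicates 1 and 2, from 702 and 664 counts, and its mean of 5.20 ± 0.523 TPM lay at percentile 52.6. Stil (chr4:115000159-115043196, plus strand) encodes the Plk4 substrate that loads Sass6. It was at 10.8 and 10.2 TPM, from 1168 and 1129 counts, and its mean was 10.5 ± 0.403 TPM. Sass6 (chr3:116594982-116631004, plus strand) makes the protein of the cartwheel, the hub around which the new centriole is assembled. It was at 14.7 and 14.3 TPM, from 1356 and 1432 counts, and its mean of 14.5 ± 0.325 TPM had the smallest SD of the 10 genes. The levels of Cep152, Stil and Sass6 did not overlap, and Sass6 was the highest of the centriole genes in both libraries. On the opposite strand, an exon of Trmt13, a tRNA methyltransferase at 14.5 and 14.7 TPM, overlaps 389 exon bases of Sass6. In GENCODE M21 the antisense gene Gm42893, for which no value was used here, overlaps 1502 of the 6121 exon bases of Sass6. The sources used here do not say whether strand was used in counting, so reads in the shared bases cannot be assigned with certainty.

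Cenpj (chr14:56526761-56575425, minus strand) encodes a tubulin-binding protein that sets centriole length. It was at 12.5 TPM in replicate 1 and 11.7 TPM in replicate 2, from 1184 and 1204 counts, and its mean was 12.1 ± 0.594 TPM. Cep135 (chr5:76588698-76646466, plus strand) encodes a protein that links the cartwheel to the centriole wall. It was at 6.73 and 5.90 TPM, from 816 and 779 counts, and its mean was 6.32 ± 0.587 TPM. Both libraries of Cep135 lay below every library of the 8 higher genes and above both libraries of Cep152.

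The other 2 genes act mainly outside the centriole. Cit (chr5:115845278-116008947, plus strand) encodes citron kinase, which holds the midbody together at the end of cytokinesis. It was at 23.0 TPM in replicate 1 and 21.8 TPM in replicate 2, from 3261 and 3380 counts, and its mean of 22.4 ± 0.856 TPM lay at percentile 72.1. By the gene's total TPM, its lower library stood above the highest library of any other member. Over transcripts annotated as protein-coding alone, Cit was at 14.8 and 13.8 TPM, near Aspm at 14.7 and 13.3 TPM. Mcph1 (chr8:18595131-18803189, plus strand) encodes microcephalin, a BRCT-domain protein that restrains condensin II and acts in the response to DNA damage. It was at 11.3 and 10.1 TPM, from 930 and 897 counts, and its mean was 10.7 ± 0.863 TPM. Angpt2, an angiopoietin gene that lies inside Mcph1 on the other strand, shares no exon bases with it and was at 1.76 and 1.39 TPM. The antisense gene Gm16725 shares 190 exon bases with Mcph1 and was at 0.21 and 0.19 TPM.

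In order of mean level the genes ran Cit, Sass6, Cdk5rap2, Aspm, Cenpj, Mcph1, Stil, Wdr62, Cep135 and Cep152. Neighbours whose library values overlapped were Sass6 and Cdk5rap2, Cdk5rap2 and Aspm, Mcph1 and Stil, and Stil and Wdr62. The order of each of these 4 pairs was not the same in both libraries. The other 5 neighbouring pairs kept their order with no overlap. The 3 lowest genes included those that encode the scaffold of Plk4 recruitment and the cartwheel linker. Sass6, which encodes the cartwheel protein, ranked just below Cit by mean TPM, though below Cdk5rap2 in replicate 1. This order is of the genes' total TPM. Over transcripts annotated as protein-coding alone, Cdk5rap2 had a mean of 6.87 TPM, below Mcph1 at 8.21 and Stil at 9.53 TPM. On that basis Wdr62 was at 5.72 TPM, near Cep135 at 5.25 TPM. Sass6 has no transcript in that class, because its only listed transcript is annotated for nonsense-mediated decay. Its rank therefore holds for total TPM only.

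Lists of genes of related function, called partner lists here, had higher median TPM than the members, although some of their genes lay lower. Levels are compared as the difference of median log2(TPM + 1) within each library, members minus list. Against 19 other primary microcephaly genes, among them genes of the kinetochore, condensin and nuclear lamina, the difference was -1.59 ± 0.04 (SD, n = 2). That list had a median of 35.7 ± 3.09 TPM, and 18 of its 19 genes had at least 10 TPM in both libraries. Its highest genes were Lmnb1 (lamin B1) at 163 TPM, Ncapd2 (a condensin I subunit) at 126 TPM and Copb2 (a coatomer subunit) at 107 TPM, and its lowest was Kif14, a kinesin of cytokinesis, at 3.76 TPM. Over 23 other centriole duplication and length genes, the median was 24.0 ± 0.0495 TPM and the members' difference -1.02 ± 0.08. There, 20 of 23 genes reached 10 TPM. The small centrins Cetn3 and Cetn2 were at 187 and 86.4 TPM, Plk2 at 81.2 TPM, and Rttn, a long centriole gene, at 3.44 TPM.

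The pericentriolar material and gamma-tubulin list of 17 genes had a median of 26.4 ± 2.33 TPM, a difference of -1.14 ± 0.04 from the members, and 15 of its genes reached 10 TPM. Akap9, a large scaffold protein, was its highest gene at 292 TPM, followed by Mzt1 at 111 TPM and Tubg1 (gamma-tubulin) at 91.6 TPM, with Nin lowest at 5.61 TPM. The level of Akap9 was computed with effective lengths of 1736 and 1605 bases in replicates 1 and 2, which depend on its estimated mix of transcripts. All 17 spindle pole and positioning genes reached 10 TPM, with a median of 55.7 ± 2.61 TPM and a difference of -2.21 ± 0.02. Tacc3, Ckap5 and Nde1, which act on spindle microtubules and dynein, led this list at 157, 151 and 102 TPM, and Haus6 was lowest at 15.2 TPM. The difference from 14 cytokinesis genes around citron kinase was -2.23 ± 0.04, and their median was 57.2 ± 4.83 TPM. Of those, 13 reached 10 TPM, led by Rhoa at 267 TPM, Birc5 at 197 TPM and Racgap1 at 153 TPM, with Kif14 lowest.

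Of the 7 partner lists, the members stood farthest below the 15 mitosis and proliferation genes, with a difference of -3.64 ± 0.03 on this log2 scale. All 15 reached 10 TPM, with a median of 153 ± 5.10 TPM. Ube2c, Rrm2 and Cdk1 were at 408, 343 and 306 TPM, and the lowest was Mki67, a long gene that held 7522 and 7675 counts but only 32.8 TPM. The 14 genes of DNA damage and condensin function linked to Mcph1 had a median of 35.9 ± 2.26 TPM, a difference of -1.57 ± 0.0013, and 12 of them reached 10 TPM. Set, a histone chaperone, was the highest at 497 TPM, then Smc2 and Smc4, the condensin ATPases, at 180 and 146 TPM, with Brca2 lowest at 4.90 TPM. The members' median was below that of each of the 7 lists in both libraries. The lists were not matched to the members for message length, and the part of length in these differences was not tested.

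**Figure D2:**
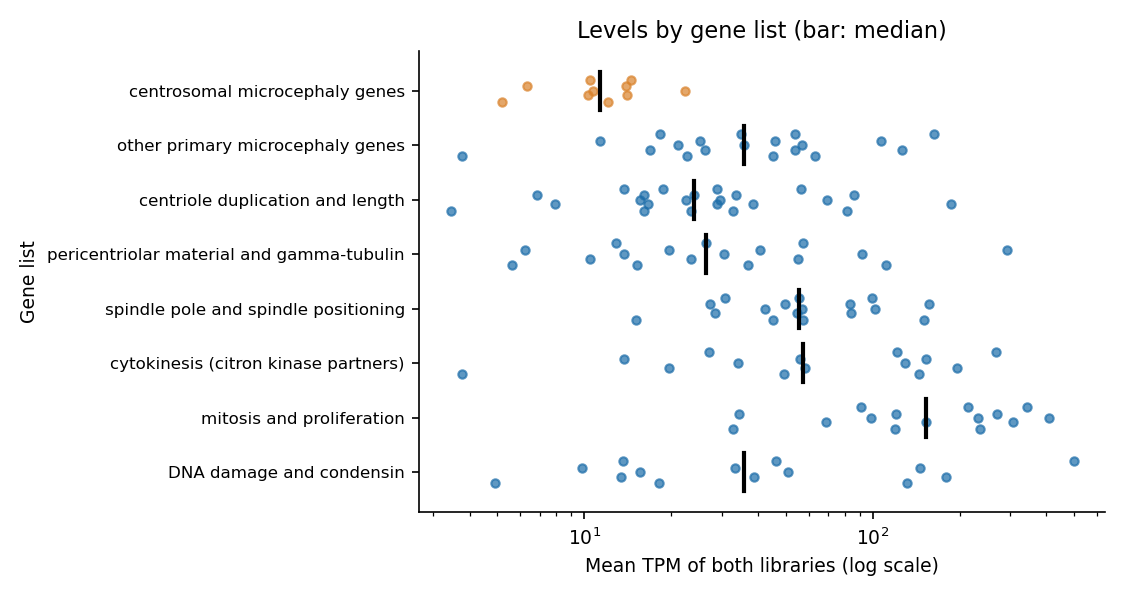
Mean TPM of both libraries on a log scale (horizontal axis) for every gene of 8 lists, with a point for each gene and a black bar for the list's median. The 10 centrosomal microcephaly genes have the lowest median, 11.4 TPM, and the 15 mitosis and proliferation genes the highest, 153 TPM.

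The libraries differed little over the 10 genes. By TPM, all 10 were higher in replicate 1, as were 76.1% of the 11953 genes with enough counts, although Cenpj, Sass6 and Cit were higher in replicate 2 on scaled counts. The median log2 ratio of replicate 2 over replicate 1 was -0.15 for the members and -0.11 for all those genes, and 6 of the 10 lay below the latter. A difference of at least 1.2-fold was reached by 1 of the 10, Cdk5rap2, and by 19.6% of all genes in either direction (16.7% higher in replicate 1, 2.91% higher in replicate 2). Among the partner lists, 4 of 19 other microcephaly genes, 5 of 23 centriole genes, 3 of 17 pericentriolar genes and 4 of 14 DNA damage and condensin genes were at least 1.2-fold higher in replicate 1. No spindle pole, cytokinesis or mitosis gene was, and no gene of the 7 partner lists was at least 1.2-fold higher in replicate 2. The choroid plexus markers, with a median log2 ratio of -0.95, differed in the same direction as the members' TPM, and the neurogenic markers, at 0.17, in the opposite one. Markers of postmitotic neurons, erythroid cells, and endothelial and mural cells had medians of -0.10, -0.11 and -0.05. Apical progenitor and microglial markers were at 0.01 and 0.06. The part of any of these marker lists in the members' difference was not tested.

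On counts scaled by TMM, a factor that sets the bulk of genes to equal levels, the members were closer still. Here 7 of the 10 were higher in replicate 1, against 47.7% of all genes, and their median log2 ratio was -0.04, against 0.01. None of the 10 reached 1.2-fold, which 12.3% of all genes did, and the 95% counting interval of every member's ratio included 0. The lowest ratio was that of Wdr62, at -0.09, and the highest that of Sass6, at 0.08 (-0.03 to 0.19). Exact intervals of this kind cover counting error only. The deposited bounds of TPM failed to overlap between the libraries for 1 of the 10, Aspm, and for 30.3% of all genes. Those of Aspm ran from 13.8 to 14.8 TPM in replicate 1 and from 12.5 to 13.4 TPM in replicate 2.

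Cdk5rap2 had the largest ratio by TPM, -0.29 on the log2 scale, but -0.01 on scaled counts (-0.10 to 0.08). Its effective length, which the deposited table derives from the mix of its transcripts, was 6210 bases in replicate 1 and 6907 bases in replicate 2, a log2 ratio of 0.15. Stil differed the opposite way in length, with 4886 bases in replicate 1 and 4577 in replicate 2. For Aspm, Cenpj, Cep152 and Sass6, whose tables list a single transcript, the effective length was equal in both libraries.

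**Figure D3:**
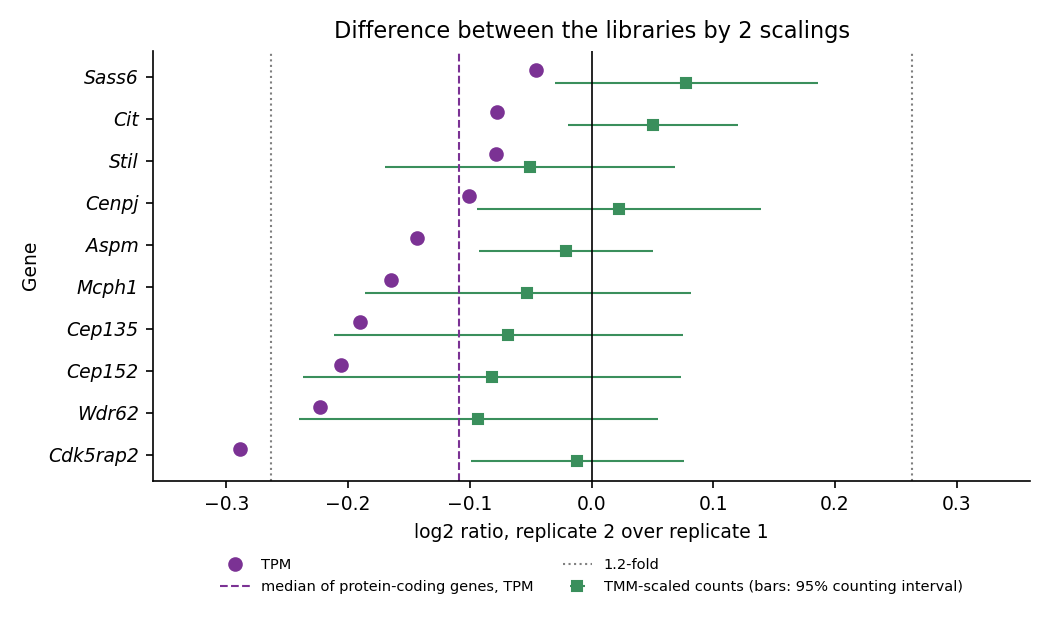
Log2 ratio of replicate 2 over replicate 1 (horizontal axis) for each gene, from TPM (circles) and from counts scaled by TMM (squares, with 95% counting intervals as lines). All 10 circles lie left of 0 and only Cdk5rap2 passes the dotted 1.2-fold line, while every interval of the scaled counts includes 0.

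The transcript tables list 50 transcripts of the 10 genes, of which 21 made up at least 10% of their gene's TPM in at least 1 library and 8 were at 0 in both. Shares are estimates of how reads were divided between overlapping transcripts, and transcript classes are those of GENCODE M21. Only 1 transcript is listed for Aspm, Cenpj, Cep152 and Sass6, as for 26.0% of the protein-coding genes with enough counts. For the other 6 members, the leading transcript held a median of 59.4% of the gene's TPM, against 68.1% for 8840 protein-coding genes with several transcripts. Protein-coding transcripts held a median of 70.3% of TPM in the 6 members and 91.1% in those genes. By counts, their mean share in the 6 members ran from 64.8% in Cdk5rap2 to 96.9% in Stil. The count share was not computed for the 8840 genes, so this gap is known by TPM only. Transcripts shorter than 1000 bases held 10.3% of TPM but 1.01% of counts in the 6 members, and 7.13% of TPM and 1.31% of counts in the comparison genes. For short transcripts a small number of reads makes a large share of TPM, so shares of counts are given as well for the leading transcripts.

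In Cdk5rap2, the largest share of TPM belonged to a transcript annotated for nonsense-mediated decay, the pathway that removes messages with an early stop codon. Cdk5rap2-201 held 42.8% of TPM in replicate 1 and 45.4% in replicate 2, and 35.5% and 33.8% of counts. Cdk5rap2-206, the full-length coding transcript of 1822 codons and 11847 bases, held 32.8% and 38.0% of TPM but 62.1% and 64.7% of counts. The order of the pair thus turned with the unit in both libraries. Compared with Cdk5rap2-206, Cdk5rap2-201 lacks 3 internal exons of 111, 77 and 219 bases, and only the 77-base exon is not a multiple of 3 bases long. It is 5248 bases long and also ends earlier at its 3′ end. Its annotated reading frame ends after 76 codons. The skipped 77-base exon and the stretch that ends at the early stop codon (capitals) are shown because this exon is the skipped one that shifts the reading frame and the stop is where the shifted frame ends. Both are 5′ to 3′ on the minus strand, from GENCODE M21 transcripts on mm10.
Cdk5rap2 skipped exon, chr4:70376793-70376869: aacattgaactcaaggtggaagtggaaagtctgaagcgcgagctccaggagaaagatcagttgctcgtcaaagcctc
Cdk5rap2-201 early stop, chr4:70364092-70364130: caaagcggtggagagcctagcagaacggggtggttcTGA

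A shorter transcript, Cdk5rap2-205, held 12% and 10.1% of TPM from 25.3 and 19.0 counts. Cdk5rap2 shares 365 exon bases on the same strand with the pseudogene Ywhaq-ps3, at 11.8 and 12.5 TPM, so the division of reads between the genes is uncertain there.

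In Wdr62, the coding transcript Wdr62-201 of 1524 codons held 46.6% of TPM in replicate 1 and 39.5% in replicate 2, and 68.5% and 57.8% of counts. Wdr62-205, annotated for nonsense-mediated decay, held 9.27% and 18.7% of TPM, from 107 counts in replicate 1 and 202 in replicate 2. Its count share was 13.7% and 27.5%, so the decay transcript took a larger part and the coding one a smaller part in replicate 2. With 2 libraries and estimated shares, this difference has no replicate check. In Wdr62-205 an exon starts 58 bases earlier than in Wdr62-201, and the reading frame ends at the stop codon in capitals. The first 58 bases of the stretch are the extension, on the minus strand of mm10.
Wdr62-205 extended exon to its stop, chr7:30242844-30242935: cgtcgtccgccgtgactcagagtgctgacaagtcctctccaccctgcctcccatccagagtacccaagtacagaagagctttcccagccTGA

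The other Wdr62 transcripts at 10% or more were Wdr62-204, Wdr62-207, Wdr62-203 and Wdr62-206. Wdr62-204, a shorter coding transcript, held 13.1% and 10.9% of TPM and 13.0% and 10.8% of counts. The other 3 are annotated as retained introns under 1000 bases: Wdr62-207 held 13.5% and 9.23%, Wdr62-203 3.87% and 16.7%, and Wdr62-206 13.7% and 3.67%. The shares of Wdr62-207 rest on 18.3 and 11.7 counts, those of Wdr62-203 on 2.64 and 10.6, and those of Wdr62-206 on 16 and 4. All 4 short retained-intron transcripts of Wdr62 together held 31.1% and 31.0% of TPM but 4.74% and 3.89% of counts. Wdr62 also shares 264 exon bases with Thap8 on the opposite strand, which is listed at 0 in both libraries.

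Cit showed the same gap between units. Cit-201, the citron kinase transcript of 2055 codons, held 60.4% and 59.9% of TPM and 89.2% and 88.2% of counts. Cit-215, a retained-intron transcript from the start of the gene, held 14.3% of TPM in replicate 1 and 22.8% in replicate 2, from 115 and 190 counts, or 3.53% and 5.62% of counts. Retained-intron transcripts of Cit together held 27.1% and 29.7% of TPM and 6.22% and 7.73% of counts.

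Mcph1 divided its level in nearly equal parts in both libraries. Its full coding transcript Mcph1-201, of 822 codons, held 59.0% and 58.4% of TPM and 72.8% and 72.6% of counts. The retained-intron transcript Mcph1-206 held 18.0% and 17.4%, and Mcph1-205, a shorter coding transcript of 600 codons, 12.8% and 13.0%. Stil-201, of 1262 codons, held 91.4% of the TPM of Stil in replicate 1 and 81.9% in replicate 2, and 97.0% and 92.9% of its counts. Stil-202 had 0 counts in replicate 1 and 44.1 in replicate 2. Cep135-202, of 1140 codons, held 81.1% and 85.6%, and the retained-intron transcript Cep135-203 18.9% and 14.4%. Cep135-203 is as long as the coding transcript, and its shares of counts, 19.2% and 14.7%, were close to those of TPM. Sass6-201, the only Sass6 transcript listed, is annotated for nonsense-mediated decay in GENCODE M21. It is 4241 bases long in the files and 4340 in M21, so the model counted may not be the one that M21 classifies.

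**Figure D4:**
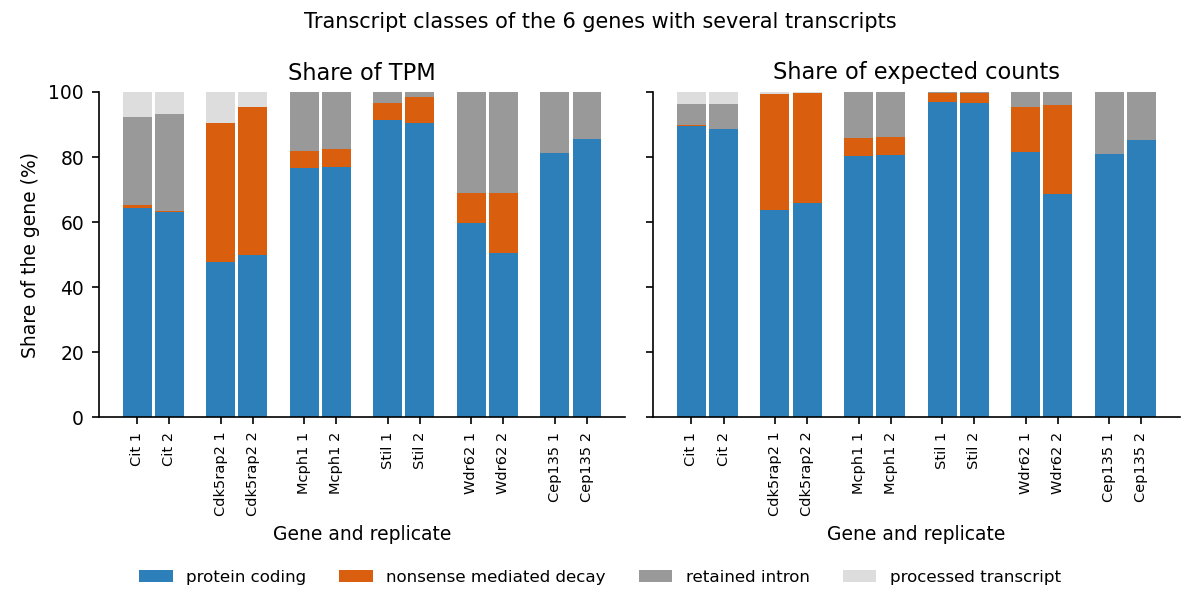
Share of each gene (percent, vertical axis) held by protein-coding, nonsense-mediated decay, retained-intron and processed transcripts, for the 6 genes with several transcripts in replicates 1 and 2, by TPM (left panel) and by expected counts (right panel). By TPM, Cdk5rap2 and Wdr62 have the lowest coding shares, 48.8% and 55.0% on average, and Stil the highest, 91.0%, while the retained-intron shares of Wdr62 and Cit shrink in the right panel.

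The start regions of the genes were read for letters of motifs known from cell-cycle promoters, since the members are genes of dividing cells. RefSeq windows on GRCm38.p6, from 250 bases before to 50 after the start, were matched by symbol for 9 of the 10 genes, all but Mcph1. Both strands were searched for CCAAT (the NF-Y box), TTTGAA (the cell-cycle homology region bound by the DREAM complex), TTTCGCGC, TTTGGCGC or TTTCCCGC (E2F) and GGGCGG (SP1), and no match in the 9 genes overlapped a match of another motif. CCAAT was found in 5 of the 9, Aspm, Wdr62, Stil, Cep135 and Cep152, and in 41.1% of 27025 genes. TTTGAA was found in 3, Aspm, Cdk5rap2 and Sass6, against 20.2%. From 150 bases before to 50 after the start, it was found in 2 (not in Sass6), against 12.8%. The E2F letters were found in Wdr62, against 2.12%, and GGGCGG in 8 of the 9, against 38.2%. Among 9437 protein-coding genes with enough counts, the shares were 43.9%, 13.8%, 4.14% and 71.4% in the same order. A match is a description of letters, not a bound site.

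Aspm, Wdr62 and Stil each held 3 CCAAT matches, and Aspm held CCAAT and TTTGAA together. Counting the start base as 0, the Aspm matches of CCAAT began at -113, -88 and -12 and TTTGAA at 6. The Wdr62 matches began at -88, -56 and -29, and those of Stil at -241, -99 and -15. Cit, the highest of the 10 by total TPM, and Cenpj, at 12.1 TPM, held neither motif. The windows of Aspm, Wdr62, Stil and Cit are shown from 150 bases before the start to 30 after it. They are on the strand of the gene, with CCAAT, its reverse complement ATTGG and TTTGAA in capitals.
Aspm, chr1:139454623-139454802, plus strand: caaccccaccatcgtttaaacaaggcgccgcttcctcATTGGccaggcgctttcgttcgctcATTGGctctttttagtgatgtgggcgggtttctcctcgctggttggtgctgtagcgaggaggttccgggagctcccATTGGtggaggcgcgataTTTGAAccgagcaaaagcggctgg
Wdr62, chr7:30280381-30280560, minus strand: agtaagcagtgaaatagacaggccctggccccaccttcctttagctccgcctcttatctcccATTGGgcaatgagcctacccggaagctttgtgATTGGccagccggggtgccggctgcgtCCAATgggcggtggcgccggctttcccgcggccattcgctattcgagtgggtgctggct
Stil, chr4:114999968-115000147, plus strand: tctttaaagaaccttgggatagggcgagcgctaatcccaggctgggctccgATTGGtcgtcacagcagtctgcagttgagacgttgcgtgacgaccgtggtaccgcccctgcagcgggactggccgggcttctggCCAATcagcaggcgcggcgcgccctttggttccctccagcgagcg
Cit, chr5:115845506-115845685, plus strand: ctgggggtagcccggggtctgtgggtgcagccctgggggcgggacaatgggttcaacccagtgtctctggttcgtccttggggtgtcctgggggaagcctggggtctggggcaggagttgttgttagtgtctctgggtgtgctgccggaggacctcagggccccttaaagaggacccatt

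Of the 4 genes with 3 CCAAT matches, Cep152 was the lowest, at 5.20 TPM, Wdr62 and Stil lay between, at 10.3 and 10.5 TPM, and Aspm was the highest, at 14.0 TPM.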

How the data were processed

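Each of the 2 libraries has a gene and a transcript table. Per the file headers and deposited metadata, the authors quantified reads on mm10 with GENCODE M4 (aligner, quantifier version and strand setting: not given in the sources used here). Expected counts, as deposited, are estimated read counts for each gene or transcript, with shared reads divided between features. The deposited TPM is the authors' length-normalised relative abundance over all rows. The deposited posterior mean of TPM and its bounds were handled as a score, because no interval level is named. A percent column, also deposited, holds the part of a gene's TPM in each transcript. It was recomputed here from TPM and from counts.

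Of 43346 mouse gene rows, 42462 matched GENCODE M21 on the same assembly by identifier. Symbols, classes and coordinates were taken from it. Only genes averaging 100 or more expected counts entered library comparisons, with a fold threshold of 1.2. List differences used log2(TPM + 1). Expected counts were rounded for TMM (edgeR 4.0.16) and size factors (DESeq2 1.42.0), used only for scaling, in R 4.3.3. Python 3.11.15, pandas 2.3.3 and scipy 1.17.1 did the rest, with exact (Clopper-Pearson) 95% counting intervals. A log2 ratio of counts scaled by library total was checked on simulated counts with known folds. The ratios of TPM and of TMM-scaled counts, and these intervals, were not. No test between groups was possible with 1 group. The 10 genes, the partner lists and the rules were chosen with earlier results of these data known. The text names all 10 members, and of each list the 3 genes of highest and the 1 of lowest mean TPM, and transcripts at 10% or more of their gene. Outside this rule, it names Eomes and Stil-202 for their difference between the libraries, and genes that overlap a member. Alternatives were other thresholds, pseudocounts, scalings, estimates and windows, and leaving out each library.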

Additional observations from a re-analysis of the deposited data

How the results depend on the processing

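Rescaling TPM to protein-coding genes raised the median of the members from 11.4 to 14.2 TPM, and single libraries gave 10.9 to 11.9 TPM. At a threshold of 20 TPM, 1 member passed instead of 7, and single libraries gave 7 to 8 at 10 TPM. The median log2 ratio of -0.15 became -0.036 with TMM and -0.034 with DESeq2 size factors. Those size factors were 1 in both libraries, so the latter ratio is of unscaled expected counts. Members differing at least 1.2-fold went from 1 to 0 with TMM, and 0 differed at least 1.5-fold. The median leading transcript share of 59.4% was 56.5% with posterior means, 77.9% with expected counts, and 59.2% to 59.7% in single libraries. Among protein-coding transcripts only it was 94.4%, over the 5 members whose leading transcript is coding (60.2% of all TPM in those 5), so Cdk5rap2 is left out. With the leading coding transcript of all 6 members, an alternative added after seeing the data, it was 86.3%. The members' difference from other microcephaly genes was -1.66 with a pseudocount of 0.1 (-1.61 to -1.56 in single libraries). From mitosis genes it was -3.56 with means of log2 values and -3.74 with that pseudocount (-3.66 to -3.61 in single libraries). The log2 ratios of Cenpj, Sass6 and Cit changed sign, to 0.02, 0.08 and 0.05 with TMM and to 0.02, 0.08 and 0.05 with DESeq2 size factors. From 150 bases before to 50 after the start, CCAAT, E2F and GGGCGG were found in 5, 1 and 8 members, as in the longer window, and TTTGAA in 2 instead of 3. The cause of these shifts was not tested. No paired analysis was possible because there is 1 group. Low counts behind short transcripts limit their shares.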
